A study of Homo sapiens with 2 samples.

Results

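The regions described here are the IGF2BP3 peaks that overlapped, by 1 bp or more, a gene annotated in GENCODE 44 as snoRNA, scaRNA, snRNA, miRNA, misc_RNA, ribozyme or vault_RNA. They are called small RNA peaks below, and the gene that a peak covered by the most bases was taken as its gene. Both samples were OE-19 cells, an established line from a human adenocarcinoma of the esophagogastric junction, and they form a single group of 2 replicates. The labels name no treatment and no altered allele. The study calls its replicates biological, but neither its methods nor the labels say that they came from separate cultures, so the spread between them may be technical. In LACE-seq, proteins are crosslinked to RNA with UV, the protein of interest is immunoprecipitated, and the ends of the cDNA made from the bound fragments are amplified and sequenced. Neither an input nor an IgG library was used here, so each peak stands out against its own surroundings and not against a control pull-down. In replicate 1, 365 of the 21096 peaks on annotated chromosomes were small RNA peaks, 1.73% with a 95% Wilson interval of 1.56 to 1.92%. In replicate 2 there were 486 of 20763, or 2.34% with an interval of 2.14 to 2.56%. The mean share was 2.04% ± 0.432 (SD, n = 2). The rule uses only position, so the heights, recurrence and orientation given below had no part in choosing the peaks. How far a peak can lie from its gene is bounded by the rule, since each peak must overlap the gene.

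Small non-coding RNAs mostly work inside ribonucleoprotein particles. Small nucleolar RNAs (snoRNAs) guide the modification of ribosomal RNA, with C/D box members (SNORD genes) directing methylation of the ribose and H/ACA box members (SNORA genes) directing pseudouridine formation. Small Cajal body RNAs (scaRNAs) do the same for the small nuclear RNAs (snRNAs) of the spliceosome. The 7SK RNA holds the elongation factor P-TEFb in an inactive particle, the 7SL RNA is the scaffold of the signal recognition particle, Y RNAs bind the Ro60 protein, and vault RNAs belong to the vault particle. RPPH1 and RMRP are the catalytic or core RNAs of RNase P and RNase MRP, which cut precursors of transfer RNA and ribosomal RNA. Many snoRNAs and microRNAs (miRNAs) are cut out of introns of a host gene, whereas 7SK, 7SL, U6, the Y RNAs, RPPH1 and RMRP are made from genes of their own by RNA polymerase III. IGF2BP3 is an oncofetal RNA-binding protein, best known as a reader of the m6A mark on messenger RNA.

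The sequences of 9 genes under peaks of both replicates are shown first, because they stand for the main families and because the part of each gene that was covered matters for what follows. Each sequence is the gene strand from 5′ to 3′, read from hg38, and capitals mark the bases that lay inside the peak in both replicates. RMRP lies at chr9:35657754-35658017 on the minus strand, and 252 of its 264 bases were inside both peaks. Of RN7SK, the gene for 7SK, the first 300 bases are printed (chr6:52995621-52995920, plus strand), and all 300 were covered. RN7SKP203 is a 7SK copy on chromosome 2, whose first 300 bases (chr2:76445111-76445410, minus strand) had 191 inside both peaks. RNY1 (chr7:148987136-148987248, minus) had 77 of 113 and VTRNA1-2 (chr5:140718925-140719013, plus) had 86 of 89. RNU6ATAC (chr9:134164439-134164564, minus) had 87 of 126, SNORD71 (chr16:71758402-71758487, minus) 81 of 86, SNORA73B (chr1:28508559-28508762, plus) 148 of 204 and SCARNA5 (chr2:233275727-233276002, plus) 211 of 276. In every one of these the covered run began at the 5′ end of the gene, and where bases were missed they were at the 3′ end.
RMRP: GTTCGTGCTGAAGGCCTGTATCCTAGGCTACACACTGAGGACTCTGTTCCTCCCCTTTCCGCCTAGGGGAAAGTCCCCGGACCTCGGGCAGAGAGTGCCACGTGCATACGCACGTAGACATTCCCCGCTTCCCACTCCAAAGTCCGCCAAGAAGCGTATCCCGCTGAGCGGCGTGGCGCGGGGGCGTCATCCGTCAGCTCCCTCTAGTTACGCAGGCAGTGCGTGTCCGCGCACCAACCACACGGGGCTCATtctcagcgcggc
RN7SK: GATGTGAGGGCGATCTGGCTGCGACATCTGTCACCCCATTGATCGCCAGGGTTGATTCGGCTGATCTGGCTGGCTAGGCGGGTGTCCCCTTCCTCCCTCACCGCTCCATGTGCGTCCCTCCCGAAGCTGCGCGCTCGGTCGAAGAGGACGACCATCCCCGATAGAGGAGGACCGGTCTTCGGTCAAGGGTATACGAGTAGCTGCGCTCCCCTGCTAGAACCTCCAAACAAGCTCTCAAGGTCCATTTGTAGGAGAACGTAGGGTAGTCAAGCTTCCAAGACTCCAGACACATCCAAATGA
RN7SKP203: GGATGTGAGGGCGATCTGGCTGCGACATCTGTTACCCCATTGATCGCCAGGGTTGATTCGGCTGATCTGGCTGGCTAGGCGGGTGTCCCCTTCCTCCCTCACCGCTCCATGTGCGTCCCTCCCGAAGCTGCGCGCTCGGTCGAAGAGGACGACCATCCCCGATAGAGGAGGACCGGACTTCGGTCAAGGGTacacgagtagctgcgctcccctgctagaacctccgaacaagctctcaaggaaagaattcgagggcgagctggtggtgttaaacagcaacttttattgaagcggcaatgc
RNY1: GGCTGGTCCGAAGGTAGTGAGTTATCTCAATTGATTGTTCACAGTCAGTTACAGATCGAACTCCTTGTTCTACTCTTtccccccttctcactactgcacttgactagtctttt
VTRNA1-2: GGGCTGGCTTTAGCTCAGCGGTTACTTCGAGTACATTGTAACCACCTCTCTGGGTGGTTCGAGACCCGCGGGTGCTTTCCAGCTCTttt
RNU6ATAC: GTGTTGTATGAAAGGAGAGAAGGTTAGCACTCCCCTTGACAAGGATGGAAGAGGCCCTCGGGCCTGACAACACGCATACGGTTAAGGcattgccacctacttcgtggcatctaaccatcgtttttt
SNORD71: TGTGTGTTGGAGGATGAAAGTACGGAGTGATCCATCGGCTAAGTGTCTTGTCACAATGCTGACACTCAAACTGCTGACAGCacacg
SNORA73B: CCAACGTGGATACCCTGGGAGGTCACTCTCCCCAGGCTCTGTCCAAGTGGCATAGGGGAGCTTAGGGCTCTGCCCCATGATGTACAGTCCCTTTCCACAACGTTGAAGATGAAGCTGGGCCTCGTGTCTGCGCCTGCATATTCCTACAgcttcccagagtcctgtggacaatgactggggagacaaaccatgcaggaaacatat
SCARNA5: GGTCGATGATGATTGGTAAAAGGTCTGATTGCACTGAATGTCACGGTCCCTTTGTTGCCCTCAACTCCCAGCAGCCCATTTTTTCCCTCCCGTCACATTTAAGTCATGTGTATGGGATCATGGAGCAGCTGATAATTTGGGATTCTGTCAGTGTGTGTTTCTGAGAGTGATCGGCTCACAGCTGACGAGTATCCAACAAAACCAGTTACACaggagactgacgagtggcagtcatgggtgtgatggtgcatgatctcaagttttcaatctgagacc

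The genes under these peaks were a small share of those annotated. After 19 entries that repeat the locus of another entry were set aside, the annotation held 6973 small RNA genes, of which 397 had a peak in replicate 1, 522 in replicate 2, 332 in both and 587 (8.42%) in either. The genes of both lists made up 83.6% of the list of replicate 1 and 63.6% of that of replicate 2. By gene type, snoRNA genes came first, with 120 peaks (32.9%) in replicate 1 and 180 (37.0%) in replicate 2. miRNA genes had 81 (22.2%) and 104 (21.4%) peaks. The type misc_RNA, which holds 7SL, Y RNA, their copies and the copies of 7SK, had 80 (21.9%) and 87 (17.9%). The gene RN7SK itself is typed snRNA. snRNA genes had 73 (20%) and 98 (20.2%), scaRNA genes 9 and 15, and ribozyme genes 2 in each. The single gene typed vault_RNA had no peak, although other vault RNA genes are typed misc_RNA and did. Most of the annotation consists of gene copies, which are listed under numbered symbols ending in P or under a shared family symbol, and most of these were not covered. Over all small RNA genes, 4.76% had a peak in both replicates. Peaks in both replicates lay over 17 of 1304 U6 copies, 13 of 809 Y RNA copies, 2 of 846 7SL copies and 31 of 298 7SK copies. Of the genes that are not copies, covered were 74 of 296 SNORD genes, 41 of 144 SNORA genes, 10 of 23 SCARNA genes and all 5 of the U5 genes, but 68 of 1852 MIR genes (3.67%), a smaller share than that of the 7SK copies (10.4%). A peak reached more than 1 small RNA gene in 26 cases (7.12%) in replicate 1 and 30 (6.17%) in replicate 2.

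Height is given here in 2 ways. Fold enrichment compares, at the summit (the highest base of a peak), the reads stacked there with the local background. It was read as their ratio after 1 is added to both, which lowers it most where the background is low. The pileup is that number of stacked reads, recovered from the deposited fold and p-value, and it is the only measure of depth, since the total number of reads is unknown. The median small RNA peak had a fold of 7.81 in replicate 1 and 8.31 in replicate 2, against 6.89 and 7.13 for all peaks of the same list. Its pileup was 24 and 26 reads, against 22 and 22, and the lowest pileup of any peak was 4. Where no exon of another gene was covered the order turned, with 13 and 13.5 reads, at a fold of 8.52 and 8.68. The local background under small RNA peaks was 1.67 and 1.60 reads at the median, against 2.05 and 1.79 for all peaks. Copies and other genes reached similar folds from unlike numbers of reads. Peaks over copies had a median fold of 8.20 and 8.19 from a pileup of 11 and 12, and peaks over other genes 7.47 and 8.33 from a pileup of 34.5 and 39. With so few reads behind a peak over a copy, its fold is the less precise of the 2.

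The highest fold of any small RNA peak in both lists belonged to the 7SK family, and it was over a copy. RN7SKP203, at chr2:76445079-76445410 in no host gene, had a fold of 27.7 in replicate 1 and 27.3 in replicate 2 from 154 and 149 reads. RN7SK itself had a fold of 19.9 and 21.5 from 99 and 119 reads. The peak over the copy therefore stood at least as high as that over the parent gene. RN7SKP203 aligned to RN7SK over 7SK bases 1 to 240 with 98.3% identity, a stretch that the sequences printed above include, and of its 31-base words 55.3% occurred once in the genome. Of the words of RN7SK itself only 10.4% did, and its summit word occurred 8 times in the genome in replicate 1 and 12 times in replicate 2, so reads may have been placed on the wrong member. The summit over RN7SKP203 lay 24 nt before the 5′ end of the gene in both replicates, on a word that occurs once. Other 7SK copies followed, with RN7SKP79 at a fold of 20.7 and 21.6 and RN7SKP80 at 19.7 and 21.9. As a family, 7SK and its copies had 39 and 46 peaks with a median fold of 8.69 and 9.51 from 13 and 13 reads.

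The 3 genes for 7SL, the RNA of the signal recognition particle, each had a peak in both replicates, and all of them were higher in replicate 2. RN7SL2 had a fold of 17.9 in replicate 1 and 23.6 in replicate 2, from 39 and 87 reads. RN7SL1 had 11.4 and 17.6, and RN7SL3 10.7 and 18.1. For RN7SL1 the summit of replicate 1 lay before the gene, 473 bp from that of replicate 2, so its 2 folds are not from the same site. The peaks over RN7SL1 and RN7SL2 also covered an exon of another gene, and those over RN7SL3 did not. The 3 genes for 7SL are nearly alike, so their peaks are uncertain as to gene: none of the 31-base words of RN7SL1 and 4.44% of those of RN7SL2 occur once. Both ribozyme RNAs stood near the top of the lists. RPPH1, the RNA of RNase P, had a fold of 25.3 and 26.9 from 153 and 218 reads, under peaks that also cover exons of other genes. RMRP, the RNA of RNase MRP, had 19.7 and 23.3 from 188 and 220 reads, the most reads of any small RNA peak. Its gene lies in no host, and its summit lay 7 nt inside the gene in both replicates.

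The Y and vault RNAs differed among their members. RNY1 had a fold of 17.8 in replicate 1 and 17.2 in replicate 2 from 55 and 50 reads, whereas RNY3 and RNY4 had no peak in either replicate. The symbol RNY5 is absent from the annotation used here. The Y RNA family, which is mostly copies and includes RNY1, was low beside RNY1, with a median of 7.45 and 7.11 from 11 and 9 reads. That is above the median of all peaks in replicate 1 and just below it in replicate 2. Of the vault RNAs, VTRNA1-1 had a fold of 6.95 and 14.9 from 9 and 28 reads, and VTRNA1-2 had 6.66 and 10.2 from 8 and 14 reads. VTRNA1-3 had a peak in replicate 2 only (fold 6.05, 7 reads), and VTRNA2-1 in neither. The values of replicate 1 for VTRNA1-1 and VTRNA1-2 rest on fewer than 10 reads each.

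Among snoRNAs, the highest folds in both replicates were over genes for U3 and U8, which act in the cutting of precursor ribosomal RNA. SNORD3D, one of the genes for U3, had a fold of 26.9 in replicate 1 and 24.8 in replicate 2 from 174 and 168 reads. SNORD118 (U8) had 22.5 and 23.7 from 118 and 116 reads, and SNORD13 (U13), which guides acetylation of 18S rRNA, had 18.2 and 19.7 from 55 and 61. The other U3 genes were SNORD3B-1 with 17.8 and 17.2, SNORD3C with 15.2 and 14.6, SNORD3A with 11.4 and 11.4 and SNORD3B-2 with 8.17 and 9.23. For these U3 genes the share of 31-base words that occur once ranged from 0.149% (SNORD3A) to 18.6% (SNORD3D), so reads of U3 cannot be assigned to one gene with certainty. SNORA73B and SNORA73A (U17), both within RCC1, had 14.4 and 13.1, and 6.52 and 13, the latter with 25 and 82 reads. Among SNORD genes that guide modification, SNORD71 had a fold of 15.0 and 18.5 from 40 and 55 reads in an intron of AP1G1. SNORD17, in an intron of SNX5, had 10.0 and 21.9 from 50 and 119 reads, the widest ratio between replicates of any pair of overlapping small RNA peaks. The peaks over SNORD3D and SNORD118 also covered exons of other genes, TMEM107 for SNORD118, whereas those over SNORD13, SNORD71 and SNORD17 did not. The U14 genes SNORD14A, SNORD14B, SNORD14C and SNORD14E, whose RNA acts in the maturation of 18S rRNA, had folds between 3.5 (SNORD14E) and 5.93 (SNORD14B) in replicate 1, and between 4.50 (SNORD14E) and 8.50 (SNORD14A) in replicate 2, all but the last below the median of all peaks in the same list, and SNORD14D lay under peaks of both replicates that were assigned to a neighbouring gene. The family medians were 6.76 and 7.23 from 40.5 and 45 reads for SNORD and 7.87 and 9.0 from 32 and 40 reads for SNORA.

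The scaRNAs were higher in replicate 2. SCARNA5 and SCARNA6, neighbours inside ATG16L1, had folds of 15.9 and 15.3 in replicate 1 and of 19.6 and 19.8 in replicate 2. SCARNA7 had 13.6 and 18.7, SCARNA13 12.7 and 19.4, SCARNA4 9.92 and 15.5, and SCARNA2 7.70 and 11.7. SCARNA17 showed the widest gap of those named, at 8.88 from 11 reads in replicate 1 and 17.4 from 42 reads in replicate 2. A further 8 SCARNA genes had a peak in replicate 2 alone, among them SCARNA3 (fold 14.4, in COP1). The entry named Telomerase-vert, at the telomerase RNA, had 14.8 and 18.6.

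Spliceosomal snRNAs of both spliceosomes were covered. RNU5A-1, a U5 gene, had a fold of 18.5 in replicate 1 and 22.9 in replicate 2 from 44 and 77 reads, and RNU5B-1 had 12.2 and 21.5. RNU4-2 had 14.8 and 14.3, and RNU4-1 10.3 and 12.2. Of the U1 genes, RNU1-4 had 21.5 and 24.6 from 62 and 114 reads, and RNU1-1 had 11.4 and 8.04, but no 31-base word of RNU1-1 occurs once. RNU2-2P, annotated as a U2 copy, had 18.9 and 17.4 from 60 and 65 reads, while RNU2-1 had no peak. The peaks over RNU1-4 and RNU2-2P also covered exons of other genes, and those over RNU5A-1, RNU5B-1, RNU4-2 and RNU6ATAC did not. RNU6-1 was at 5.96 and 6.15 from 7 and 7 reads, below the median of all peaks in each list. RNAs of the minor spliceosome, which removes a rare class of introns, were covered too. RNU11 had 20.1 and 19.9 from 51 and 65 reads, under peaks that also cover exons of a long non-coding RNA. RNU6ATAC had 14.3 and 19.0 from 36 and 70. RNU4ATAC had 12.6 and 11.8, under peaks that also cover an exon of another gene. RNU12, the remaining RNA that is particular to that spliceosome, had no peak in either replicate, nor did RNU7-1, the U7 gene of histone RNA processing. Among 57 symbols of well-known small RNAs that the annotation held, 32 had a peak in both replicates. Over all 6973 small RNA genes, 332 (4.76%) did. The 2 shares are of unlike sets: the symbols were chosen with earlier results of these data known and include no copies, whereas most annotated genes are copies.

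**Figure D1:**
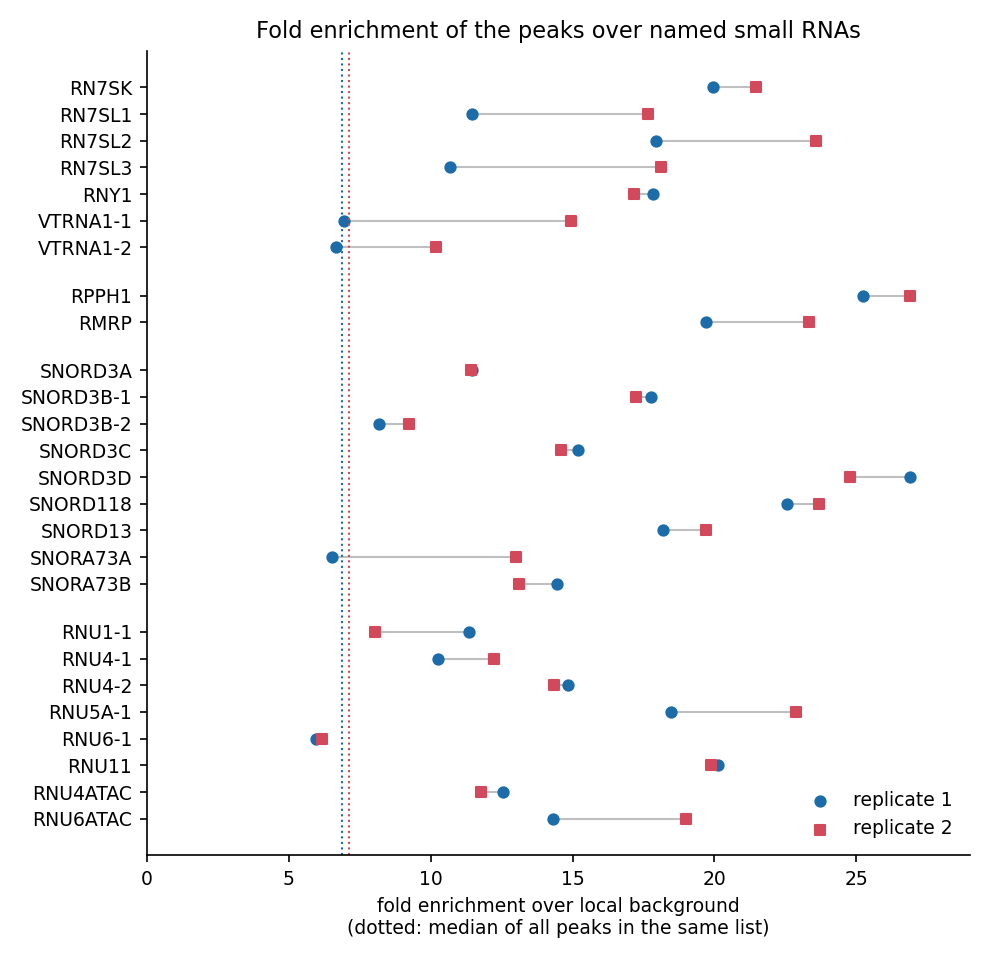
Fold enrichment over local background (x axis) of the peak over well-known small RNAs (y axis), with circles for replicate 1, squares for replicate 2 and dotted lines at the median of all peaks in each list (6.89 and 7.13). RPPH1, SNORD3D and SNORD118 stand above 20 in both replicates, RNU6-1 lies left of both lines, and among the RNAs plotted VTRNA1-1 and SNORA73A differ most between replicates by ratio.

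Peaks over miRNA genes were mostly also peaks over exons of longer genes. Of them, 88.9% in replicate 1 and 88.5% in replicate 2 also covered an exon of another gene, so reads of the miRNA precursor and of that exon cannot be told apart. MIR4709, in an exon of NPC2, had a fold of 14.5 and 16.3 from 47 and 47 reads, and MIR4470 and MIR3661, which have no host on their own strand, had 13.8 and 18.5, and 11.8 and 17.9. MIR6869 in an exon of FKBP1A had 12 and 16.8, and MIR1181 in an exon of CDC37 had 12.5 and 13.8. Only 9 and 12 miRNA peaks covered no other exon. They were over 8 genes in both replicates, and 6 of these matched a RefSeq entry by symbol, giving 10 mature miRNAs, while MIR3609 and ENSG00000280968 did not match. A further small RNA gene under these peaks was not excluded, but no exon of a gene of another type lay there. The mature sequences are given for that reason, and a printed sequence does not mean that the summit lay on that miRNA. They are RefSeq sequences on GRCh38.p14, 5′ to 3′, with the seed (bases 2 to 8, which pairs with targets) in capitals, and no 2 of the 10 seeds are the same.
hsa-miR-181a-3p: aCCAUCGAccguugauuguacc
hsa-miR-181a-5p: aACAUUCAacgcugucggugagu
hsa-miR-182-3p: uGGUUCUAgacuugccaacua
hsa-miR-182-5p: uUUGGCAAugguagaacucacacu
hsa-miR-222-3p: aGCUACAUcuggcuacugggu
hsa-miR-222-5p: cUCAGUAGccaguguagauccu
hsa-miR-194-5p: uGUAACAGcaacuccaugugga
hsa-miR-339-3p: uGAGCGCCucgacgacagagccg
hsa-miR-339-5p: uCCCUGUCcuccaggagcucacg
hsa-miR-4485-3p: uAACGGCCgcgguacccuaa

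MIR181A1, whose products are miR-181a-5p and miR-181a-3p, had a fold of 6.67 in replicate 1 and 11.3 in replicate 2, from 25 and 23 reads. MIR182 had 7.14 and 6.58 from 12 and 11 reads, MIR222 6.68 and 6.43 from 18 and 13, and MIR194-1 6.66 and 6.38 from 8 and 8. Of the MIR182 products, miR-182-3p lay outside the peaks of both replicates. MIR339 had 5.79 and 6.36, and the unmatched MIR3609 8.93 and 9.14. The unmatched ENSG00000280968 had 4.72 and 5.46. Of these folds, those of MIR3609 in both replicates, of MIR182 in replicate 1 and of MIR181A1 in replicate 2 lie above the median of all peaks in the same list and the others below it. Summits lay 83 nt and 172 nt before the 5′ end for MIR182, 241 nt and 180 nt before it for MIR339, and 1 nt and 40 nt before it for MIR222. For MIR181A1 they lay 14 nt and 6 nt after it, and for MIR194-1 12 nt before and 32 nt after it. MIR181A1, MIR182, MIR222 and MIR3609 lie in host introns, and MIR339 lies within C7orf50. MIR4485 had many more reads, 99 and 104, at a fold of only 5.90 and 5.48, with its summit 150 nt and 144 nt after the 5′ end, past the 57 bases of the gene, on a word that occurs 3 times in the genome. No peak was found in either replicate over MIR21, over the 6 genes of the MIR17 cluster in MIR17HG or over the 11 let-7 genes, the family that IGF2BP proteins are known to oppose on shared target messages. Over all 1852 MIR genes only 7.24% had a peak in either replicate, so an absence in so small a set does not set these genes apart. Absence here means that no peak passed the authors' threshold, not that the RNA was unbound.

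Small RNA peaks of replicate 1 had a counterpart in replicate 2 more often than the average peak. Of the 365, 311 (85.2%, Wilson interval 81.2 to 88.5%) overlapped a peak of the other list by 1 bp or more, where 60.1% of all peaks in replicate 1 did so. In the other direction 317 of 486 (65.2%, 60.9 to 69.3%) did, against 61.2% of all peaks in replicate 2, a share that lies inside the interval. With summits required within 50 bp of each other, 201 (55.1%, 49.9 to 60.1%) of the small RNA peaks in replicate 1 and 198 (40.7%, 36.5 to 45.2%) in replicate 2 recurred, against 34.1% and 34.6% of all peaks. Among peaks whose summit word of 31 bases occurs once in the genome, 252 of 315 (80.0%, 75.2 to 84.0%) in replicate 1 and 256 of 421 (60.8%, 56.1 to 65.4%) in replicate 2 recurred, against 58.5% and 58.9%. The intervals cover counting error only, and neighbouring or near-identical genes do not give independent peaks. The difference from all peaks was thus wide in replicate 1 under each of these rules, while in replicate 2 the share of all peaks lay outside the interval only for summits within 50 bp.

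The 2 directions differed in most families. The 7SL family recurred in 100% of its 5 peaks in replicate 1 and in 50% of its 10 in replicate 2. SNORA peaks recurred in 95.5% of cases in replicate 1 and in 57.3% in replicate 2, scaRNA peaks in 100% and 60.0%, U1 peaks in 90.5% and 54.3%, and SNORD peaks in 91.4% and 67.4%. Y RNA peaks went the other way, with 56.0% in replicate 1 and 73.7% in replicate 2. Replicate 2 thus held nearly all of the SNORA and SCARNA peaks of replicate 1 plus others of its own. The 32 SNORA peaks found in replicate 2 alone were not marginal, with a median fold of 7.89 from 24.5 reads. For all small RNA peaks, those that recurred were higher than those that did not, with median folds of 8.17 and 6.08 in replicate 1 and of 9.26 and 7.0 in replicate 2. Their pileups were 27 and 11 reads, and 39 and 15. The highest peaks in one list alone were over SNORA70 (10.9), MIR6759 in CDK4 (8.90) and a Y_RNA copy on chromosome 4 (8.69) in replicate 1. In replicate 2 they were over SNORA74B in ATP6V0E1 (14.5), SCARNA3 (14.4) and RN7SKP54 in an exon of MUC17 (13.7).

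**Figure D2:**
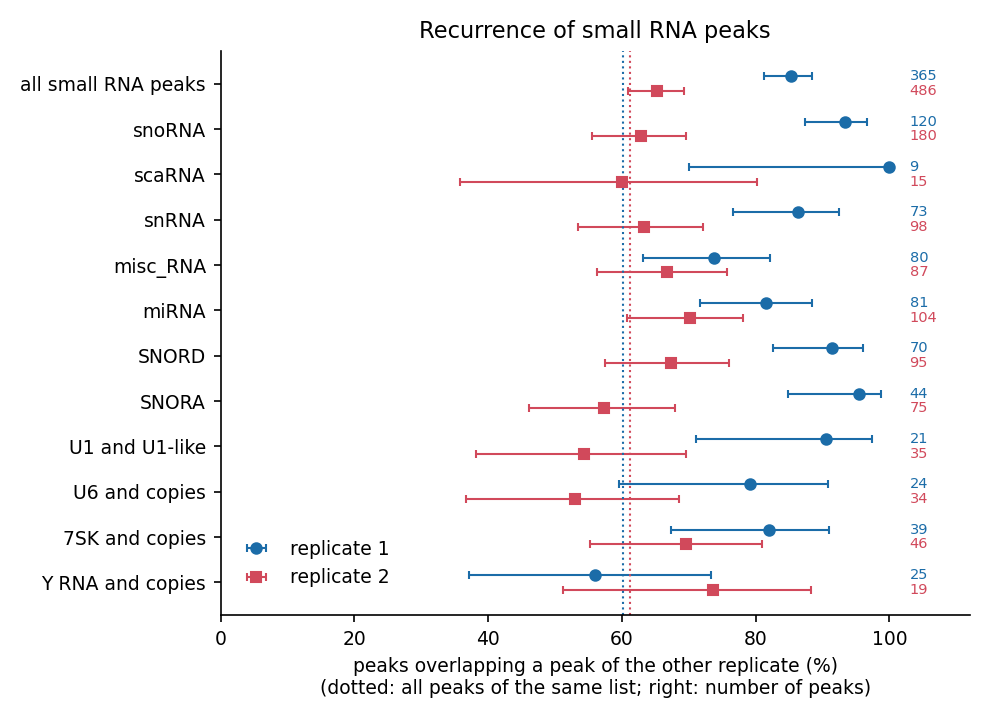
Share of peaks (x axis, percent) that overlap a peak of the other replicate, by gene type and family (y axis), with 95% Wilson intervals as bars, the number of peaks at the right and dotted lines at the share of all peaks (60.1% and 61.2%). In replicate 1 (circles) every type lies above its line and of the rows shown the Y RNA family alone lies below it (56.0%), whereas in replicate 2 (squares) each interval shown includes the line.

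Where peaks of both replicates overlapped over the same gene, their folds went together. There were 301 such pairs, with a Spearman rho of 0.758 across pairs, as a description only, since the pairs come from the same 2 libraries. The median distance between their summits was 26 bp. Replicate 2 was higher in 212 of the 301 pairs, with a median ratio of replicate 2 to replicate 1 of 1.13. Over all 13046 overlapping pairs of the 2 lists, rho was 0.665 and the median ratio 1.05, with 7484 pairs higher in replicate 2. By type, replicate 2 was higher in 9 of 9 scaRNA pairs (median ratio 1.37) and 86 of 111 snoRNA pairs (1.19), but in only 34 of 58 misc_RNA pairs (1.04). By type, the median ratio was thus widest for scaRNAs and then snoRNAs. No test of this was made, as each replicate is 1 library.

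**Figure D3:**
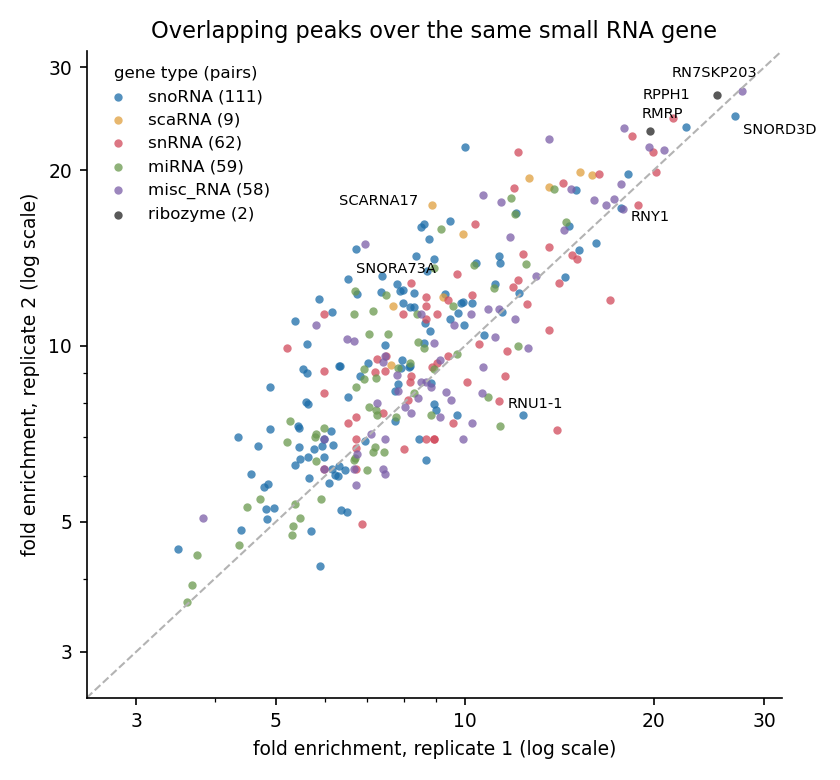
Fold enrichment in replicate 1 (x axis, log scale) against replicate 2 (y axis, log scale) for the 301 pairs of overlapping peaks over the same small RNA gene, coloured by gene type, with a dashed line where both are equal. The 9 scaRNA pairs all lie above the line, and RN7SKP203 and SNORD3D are the highest points that lie below it.

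Most peaks spanned the 5′ ends of the genes, and outside the miRNAs fewer reached the 3′ ends. In replicate 1, 95.3% and in replicate 2, 97.1% of small RNA peaks spanned the 5′ end of their gene, but only 37.3% and 30.04% spanned the 3′ end. The summit lay before the 5′ end in 61.9% and 64.4% and inside the gene in 27.9% and 28.4%, at a median position 34 nt and 42 nt before the 5′ end. Peaks are wider than most of these genes, with a median width of 336 and 342 bp over all peaks and none narrower than 293 and 294 bp. A peak centred on a short gene would span both of its ends, so the gap between the shares for the 5′ end and the 3′ end gives the direction of the offset. It was wider where no other exon was covered, in 159 peaks of replicate 1 and 224 of replicate 2: 99.4% and 100% spanned the 5′ end, and 13.2% and 8.04% the 3′ end. Their median summit lay 48 nt and 46 nt before the 5′ end. The offset followed the gene and not the genome: for plus-strand genes the median was 51.5 nt and 43 nt before the 5′ end, and for minus-strand genes 48 nt and 47 nt. By family, the median summit of U6 peaks lay 71 nt and 70 nt before the 5′ end, that of Y RNA peaks 70 nt and 57 nt and that of U5 peaks 74 nt and 80 nt. That of 7SK peaks lay nearer, at 19 nt and 13 nt, and that of SNORD peaks at 29.5 nt and 57 nt before the end. Peaks over MIR genes showed little offset, with 78.2% and 79.2% spanning the 3′ end and a median summit 6.5 nt and 5 nt before the 5′ end. No peak of the 7SK family spanned the 3′ end in either replicate. The ribozyme RNAs differed, with summits 7 to 13 nt inside the gene. What sets this offset, in the assay or in the peak calling, was not tested.

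**Figure D4:**
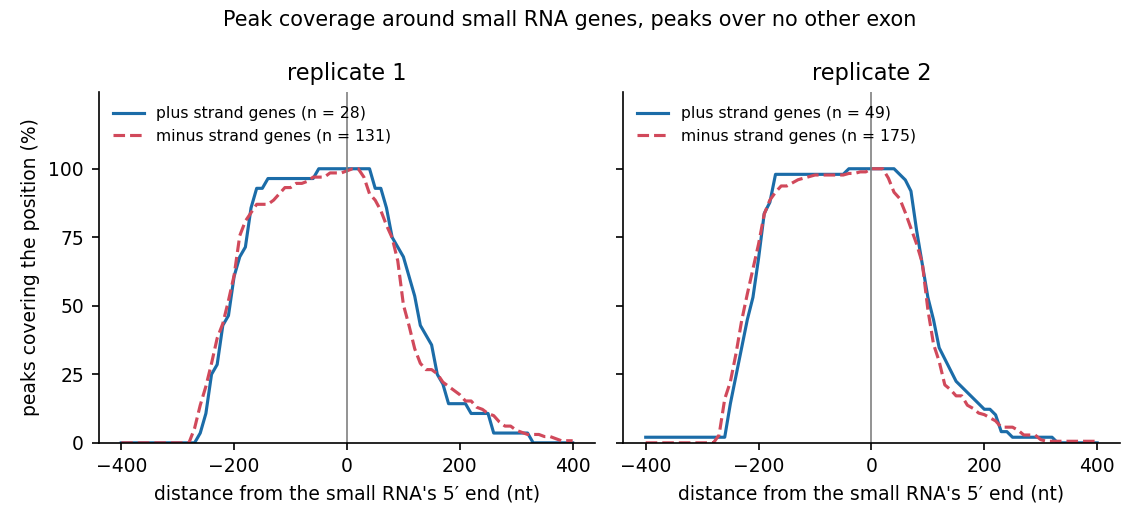
Share of peaks (y axis, percent) that cover each position (x axis, distance in nt from the 5′ end of the small RNA, negative before it), for peaks over no other exon, with replicates in separate panels, solid lines for plus-strand and dashed lines for minus-strand genes. Both strands and both replicates peak at the 5′ end, with broad cover before it and a fall within about 200 nt after it.

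Genes on the minus strand were covered far more often than genes on the plus strand. Among the peaks that covered no other exon, 131 of 159 (82.4%, interval 75.7 to 87.5%) in replicate 1 and 175 of 224 (78.1%, 72.3 to 83.0%) in replicate 2 were over minus-strand genes. Of the annotated small RNA genes, 47.3% are on that strand. The imbalance was complete for Y RNA, with 0 plus-strand and 22 minus-strand genes under such peaks in replicate 1 and 0 and 17 in replicate 2, although the annotation holds 386 plus-strand and 426 minus-strand Y RNA genes. For 7SK and its copies, 29 of 35 and 37 of 43 peaks were over minus-strand genes, and for U6, 18 of 22 and 27 of 33. In the SNORD family it was 10 of 15 and 12 of 22, where 33.2% of the annotated genes are on the minus strand. Over all small RNA peaks the shares were 68.5% and 63.8%, and over those that covered another exon 57.8% and 51.5%. An imbalance was present outside the small RNAs too. Of the remaining peaks with their summit in protein-coding genes of a single strand, 68.1% in replicate 1 and 66.3% in replicate 2 were in minus-strand genes, against 49.3% of annotated protein-coding genes. The deposited peaks carry no strand, and the cause was not tested. Any count of plus-strand genes given here, such as the 5 of 151 plus-strand against 27 of 148 minus-strand 7SK genes with a peak in both replicates, carries this imbalance.

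**Figure D5:**
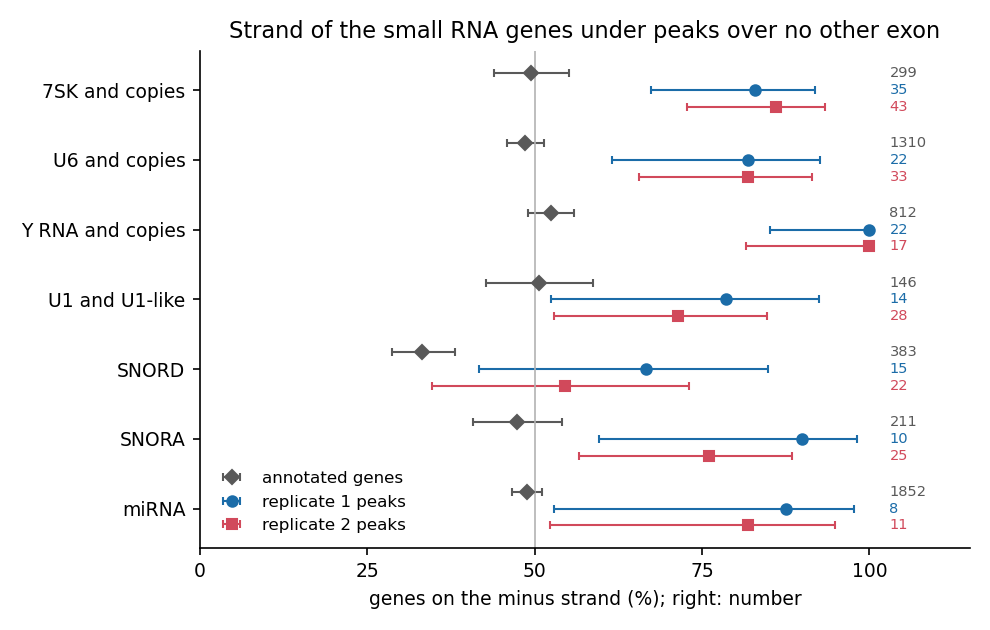
Share of genes on the minus strand (x axis, percent) for annotated genes (diamonds) and for the genes under peaks that cover no other exon in replicate 1 (circles) and replicate 2 (squares), by family, with 95% Wilson intervals as bars and the number of genes or peaks at the right. In each family both replicates lie to the right of the annotated genes, and Y RNA reaches 100% in both.

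Many small RNAs lie within other genes. Of the annotated small RNA genes, 2771 lay in an intron of a host, 864 touched a host exon and 3338 had no host, and 3.28%, 16.8% and 2.88% of them, in that order, had a peak in both replicates. The small RNA gene lay in an intron of a host on the same strand in 100 peaks (27.4%) of replicate 1 and 162 (33.3%) of replicate 2. It touched a host exon in 144 and 180 peaks, and had no host in 121 and 144. Peaks in intronic genes had a median fold of 7.87 and 8.66, peaks of genes in host exons 6.99 and 7.63, and peaks of genes without host 8.69 and 8.68. Pileups went in another order, with 26.5 and 25 reads for intronic genes, 35 and 40 for genes in host exons and 12 and 12 without a host. Genes in host exons were therefore the lowest in fold and the highest in reads. Over all small RNA peaks, 206 (56.4%) in replicate 1 and 262 (53.9%) in replicate 2 also covered an exon of another gene on either strand. For snoRNA peaks this share was 76.7% and 71.1%, and for snRNA peaks it was 23.3% and 16.3%. For such peaks the reads of the small RNA and those of the host messenger or long non-coding RNA cannot be told apart.

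In 26 hosts, at least 2 of the small RNA genes had a peak in both replicates. SNHG1, SNHG12, SNHG17 and SNHG29, long non-coding RNAs whose main known products are their intronic snoRNAs, each had 3. In SNHG29 these were all 3 of its small RNA genes (SNORD49A, SNORD49B and SNORD65), with folds of 4.69 to 5.89 in replicate 1 and 4.21 to 6.73 in replicate 2. In SNHG1 they were 3 of 7 (SNORD22, SNORD26 and SNORD30), with folds of 4.56 to 6.21 and 5.29 to 6.04. In SNHG17, whose genes are H/ACA snoRNAs, SNORA71A, SNORA71B and SNORA71D had folds of 5.42 to 7.35 and 7.30 to 12.4. Hosts that encode ribosomal proteins included RPS3 (SNORD15A and SNORD15B), RPS13 (SNORD14A and SNORD14B), RPL13A (SNORD32A and SNORD33) and RPL27A (SNORA3A and SNORA3B). LINC01138 held 3 variant U1 genes (RNVU1-1, RNVU1-2 and RNVU1-21) with folds of 9.02 to 14.0 and 7.19 to 10.1. ATG16L1, with SCARNA5 and SCARNA6, had the highest folds of the 26 hosts. The 26 is a count without a share, as the number of hosts that hold at least 2 small RNA genes is not given here.

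Copies with a peak were closer to their parent RNA than copies without one. The 52 copies of 7SK with a peak in either replicate matched RN7SK at a median identity of 90.8%, against 85.0% for the 246 without. For U6 the values were 96.2% (38 copies) and 86.7% (1266 copies), for U1 92.6% (19) and 85.3% (96), and for Y RNA 93.1% (29) and 90.6% (780). The match reached back to the first 5 bases of the parent in 92.3% of 7SK copies with a peak and 80.1% of those without. For U6 it did in 94.7% and 83.6% and for Y RNA in 100% and 91.3%, whereas for U1 the order was turned, with 84.2% and 90.6%. Close copies are also those on which reads of the parent can be misplaced. In U6 copies with a peak, a median of 44.2% of 31-base words occurred once in the genome, against 91.5% in those without. The difference was smaller for 7SK (87.5% and 96.9%), Y RNA (80.3% and 94.0%) and U1 (90.2% and 96.2%). At the summit itself the word was repeated in 13.7% of small RNA peaks in replicate 1 and 13.4% in replicate 2, against 9.19% and 8.13% of all peaks. Whether the copies are themselves bound was not tested.

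Over all small RNA peaks, the letters around the summits differed from those of all peaks in genes in replicate 2 but were close to them in replicate 1. Where no other exon was covered, they differed in both replicates. The motif GGAC, the core of the sequence in which m6A is most often made, was sought on the gene strand in the bases from 50 nt before to 50 nt after each summit. It was in 26.3% (22.0 to 31.05%) of small RNA windows in replicate 1 and in 23.3% (19.7 to 27.2%) in replicate 2, against 28.99% and 31.9% of the windows of all peaks in genes. Where no other exon was covered it was in 18.9% and 14.7%. Since most summits lie before the gene, the same windows were also read 146 nt and 147 nt downstream, a shift chosen after the offset had been seen. GGAC was then in 32.3% and 30.5% of small RNA windows, against 32.2% and 36.3% of all, and in 30.8% and 33.0% of those over no other exon. The longer form TGGAC, which overlaps GGAC, was in 9.59% and 7.0% of windows at the summit, against 10.1% and 10.1%. GC content was lower at small RNA summits in replicate 2, with a median of 47.5% against 56.4%, and close in replicate 1, with 47.5% against 49.5%. The small RNA median was thus the same in both replicates, and that of all peaks in genes differed. Over no other exon the median was 41.6% in both replicates, below that of all peaks in each. Within the gene bodies, the C box TGATGA was in 67.9% of annotated SNORD genes and in 68.4% of those with a peak in either replicate (75.3%, 64.6 to 83.6%, of those with one in both). CTGA, the D box, was in 95.3% and 98.2%. The ACA that ends H/ACA snoRNAs 3 bases before the 3′ end was in 65.9% of annotated SNORA genes and 74.7% (64.4 to 82.8%) of those with a peak in either. GGAC itself was in 26.7% of all small RNA genes and 37.5% of those with a peak in either replicate, but within SNORA genes the shares were 40.8% and 39.8% and within SNORD genes 21.7% and 23.7%. These shares describe letters only.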

How the data were processed

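IGF2BP3 LACE-seq peaks of 2 OE-19 replicates were analysed. The labels name fastp, HISAT2 and MACS2 with hg38, the study's methods name Bowtie and Piranha, and versions are not given in the sources used here. The authors deposited 1 narrowPeak table per replicate, without strand, holding fold enrichment as a ratio, p-value and q-value as −log10, and a score that was not used. Pileups were recovered from the deposited fold and p-value for all peaks. This assumed a Poisson test and a fold with 1 added to both reads and background, and the recovery was tested on simulated data. Peaks were overlapped (1 bp or more) with GENCODE 44 genes on hg38, the same build. The 46 and 36 peaks on other scaffolds were left out of results that need genes. Words of 31 bases were counted on both strands of the genome. Families follow symbol prefixes; members and lists were chosen with earlier results of these data known. Named genes are a fixed list of well-known small RNAs plus the highest shared and unshared peaks, and SNORD17, MIR4485 and the hosts were chosen after their values were seen. Shares carry 95% Wilson intervals. Alternatives covered the overlap rule, copies, repeated words, other exons, the 5000 top peaks, hosts and windows. Coordinates are 1-based. Python 3.11.15, pandas 2.3.3, numpy 2.4.6, scipy 1.17.1 and Biopython 1.88 were used. The sequence of 1 gene is not reported here.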

Additional observations from a re-analysis of the deposited data

How the results depend on the processing

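Of 136 combinations of a result and an alternative over 13 results, 64 stayed within a set limit and 72 moved beyond it. The limit was the spread between replicates, a change of 1.5 times for counts, and a 95% interval for the rank correlation. Leaving out 1 of 2 replicates always stays within their spread, so those alternatives fell among the 64 by construction. Values are means of the 2 replicates, or counts over both.

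The mean share of 2.04% of peaks became 0.614% with the whole gene inside the peak, 0.589% with the summit in the gene, 1.60% without copies, 1.39% without numbered copies too, 0.916% without peaks over other exons and 3.28% in the 5000 peaks of highest −log10 q. In that order of settings, the 332 genes in both lists became 111, 71, then (other exons) 137 and (top 5000) 120, and 210 with summits within 50 bp. Recurrence, 75.2% at the mean, was 47.9% within 50 bp. The median fold of 8.06 became 8.69 with the summit in the gene, 8.60 over no other exon and 11.1 in the top 5000. The median pileup of 25 became 36.5, 33.5, 33, 36.75, 13.25 and 52.5 under the settings of the share. The q-value rests on the same reads as fold and pileup, so higher values of both in the top 5000 were built into that choice. The snoRNA share of 35.0% became 42.3% by summit, 41.7% and 47.4% without copies, 20.4% over no other exon and 48.0% in the top 5000.

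The intronic share of 30.4% became 35.3% by summit, 40.2% over no other exon, 39.8% with hosts on either strand and 54.0% with canonical host transcripts. The share over another exon, 55.2%, became 83.9% for whole genes, 59.3% by summit, 64.8% and 73.6% without copies, 70.4% in the top 5000, 45.5% with canonical transcripts, 50.3% on the same strand, 73.9% for plus-strand and 45.6% for minus-strand genes. The repeated share of 13.5% became 16.2% by summit, 12.4% and 13.1% without copies, 16.7% over no other exon, 14.6% in the top 5000 and 15.3% by gene words. The rank correlation of folds, 0.758, was 0.805 without numbered copies, 0.897 in the top 5000 and 0.894 for pileups. Summits inside genes, 28.2%, became 41.4% for whole genes, 31.6% and 31.3% without copies, 27.2% at single words, 26.2% over no other exon, 32.1% in the top 5000, 52.8% with summits moved downstream and 28.7% for plus-strand genes. GGAC, 24.8%, became 28.1% for whole genes, 20.8% by summit, 28.6% and 30.2% without copies, 16.8% over no other exon, 14.2% in 51 bases, 38.4% in gene bodies, 44.8% on both strands and 31.4% downstream. Some settings left smaller sets of peaks. Others changed the definition and kept the peaks, such as shorter windows, both strands, gene bodies, canonical transcripts and same-strand exons. Over all peaks in genes, GGAC was in 16.4% and 17.5% of windows of 51 bases. On either strand it was in 49.0% and 55.0% of their longer windows. The cause of the shifts was not tested further.

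Alternatives on plus-strand or minus-strand genes, numbered copies, gene words and moved windows were chosen after seeing the data. Recurrence, shared genes and the rank correlation need both lists, so no value exists without 1 replicate. No paired analysis was possible because there is only 1 group. Folds over copies rest on about 11 reads, which limits their precision, and total depth is unknown.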

Other observations

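Other structured RNAs outside the gene types above also had peaks. Genes typed rRNA had 3 peaks in replicate 1 and 3 in replicate 2, all of them shared, with a median fold of 11.9 and 11.6. rRNA pseudogenes had 12 and 28 peaks, 10 of them shared in each list, at a median fold of 8.66 and 9.74. Mitochondrial transfer RNA genes had 3 and 2 peaks with a median fold of 2.19 and 2.46, and mitochondrial rRNA genes 2 and 1 with 2.45 and 2.65, the lowest medians of any RNA type given here. The scaffolds outside the annotation held 46 and 36 peaks, which were not assigned to genes.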
